A study of Mus musculus with 2 samples.

Results

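Cytotoxic lymphocytes of the mouse aorta, the CD8 T cells and natural killer (NK) cells, were described in 2 single-cell RNA libraries. A barcode marks 1 droplet, and barcodes were kept if they held at least 800 UMIs (unique molecular identifiers, which tag the captured transcripts), at least 300 genes and at most 20% of UMIs from mitochondrial genes. A kept barcode was called cytotoxic if the genes Nkg7, Gzma, Klre1, Ncr1 and Klrb1c together gave at least 3 UMIs and the macrophage complement genes C1qa, C1qb and C1qc stayed under 1000 CPM (UMIs per 1000000 UMIs of the barcode). Barcodes were thus selected on the measured counts of these 8 genes and on depth, which gave 130 of 25326 kept barcodes, of which 31 of 7067 were in the Kif13b-/- library and 99 of 18259 in the wild-type library. Levels of the selecting genes therefore describe how the barcodes were chosen and support nothing further.

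Cytotoxic lymphocytes kill infected or damaged cells by releasing granules that carry the pore-forming protein perforin and serine proteases called granzymes. NK cells decide to do so through a balance of activating and inhibitory receptors encoded in the germline, whereas CD8 T cells recognise peptides on MHC class I through a rearranged T cell receptor, which signals through the Cd3 chains. Both also secrete chemokines such as Ccl5 and Xcl1, and T cells are among the immune cells found in atherosclerotic arteries.

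The study concerns the kinesin motor KIF13B in macrophages, the receptor MERTK that lets them engulf dying cells, and atherosclerosis. It profiled the aorta of Kif13b-/- mice and of wild-type mice with 1 10x 3' library per genotype. The Kif13b-/- library carries that genotype in its title and the words knock down in its genotype label. No source used here gives the allele, the mouse strain, the diet, age or sex, or how many mice went into a library. No difference between the genotypes has a replicate check, since each has 1 library, so no test was made, and all intervals are exact 95% intervals that cover counting error only. UMIs from the same library are summed and given as CPM, and a gene is called higher or lower at a ratio of 1.5 or more between the libraries.

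The libraries differed in depth, at a median of 5892 UMIs per kept barcode in Kif13b-/- and 2481 in wild-type. They shared 45 kept barcode sequences, none of them cytotoxic. About 6000 cells were loaded per library, fewer than the barcodes kept in either, so numbers here are numbers of barcodes and not of cells.

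Cytotoxic barcodes had 3311 to 46113 UMIs in the Kif13b-/- library, with a median of 7533, against 827 to 19723 with a median of 3756 in the wild-type library. Their sums were alike, at 407555 UMIs in Kif13b-/- and 416126 UMIs in wild-type. Of these, 8 Kif13b-/- barcodes of at least 15000 UMIs held 59.8% of the Kif13b-/- sum, and 2 such wild-type barcodes held 8.69%. Summed levels of the Kif13b-/- library therefore rest largely on a few droplets. For this reason the ratio of the mean level per barcode, in which each barcode weighs the same, is given beside the summed ratio wherever it ends or turns a call. Values among barcodes under 15000 UMIs, 23 in Kif13b-/- and 97 in wild-type, are added for each list, a limit chosen after the data were seen.

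**Figure D1:**
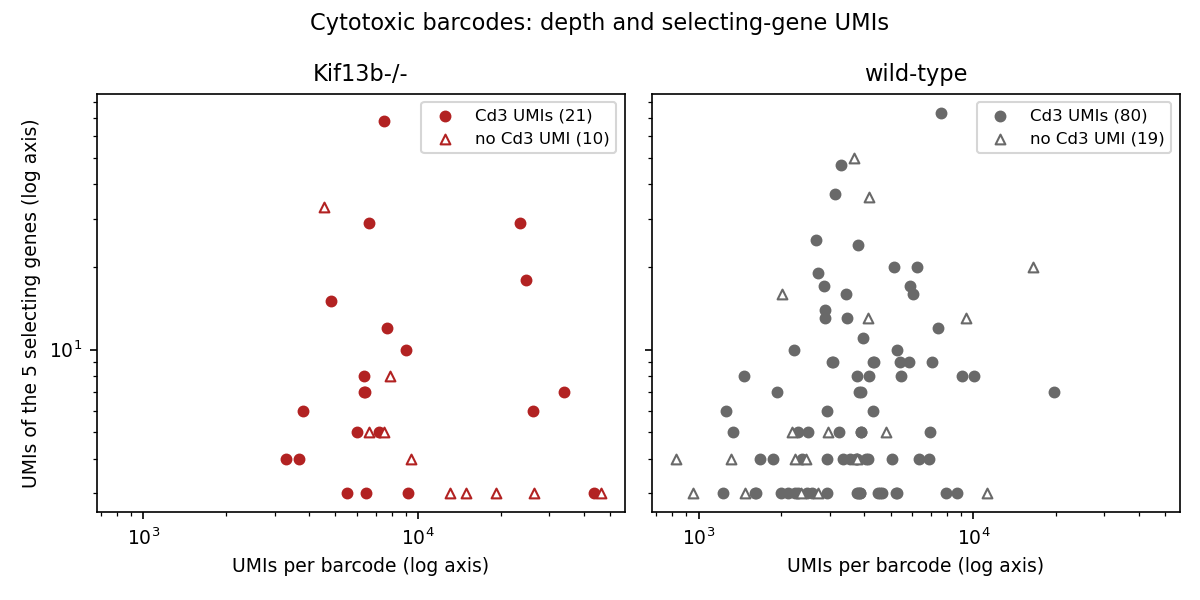
UMIs per cytotoxic barcode (x axis, log) against the summed UMIs of the 5 selecting genes (y axis, log), Kif13b-/- on the left and wild-type on the right; filled circles hold a UMI of Cd3d, Cd3e or Cd3g and open triangles hold none. Kif13b-/- barcodes reach 46113 UMIs and wild-type barcodes 19723, while the selecting genes reach 68 UMIs in Kif13b-/- and 73 in wild-type.

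Many barcodes lay near the threshold of 3 UMIs. Exactly 3 UMIs of the selecting genes were found in 9 Kif13b-/- and 26 wild-type barcodes, and just outside it 15 Kif13b-/- and 57 wild-type barcodes had 2 UMIs. The median was 5 UMIs in both libraries, and 8 Kif13b-/- and 25 wild-type barcodes had 10 or more. The C1q limit left out 3 Kif13b-/- and 9 wild-type barcodes. Nkg7 alone carried the call in 10 Kif13b-/- and 27 wild-type barcodes, and Gzma alone in 0 Kif13b-/- and 10 wild-type barcodes. A fixed number of UMIs asks for a lower CPM in a deeper barcode, and the median depths were 7533 UMIs in Kif13b-/- and 3756 UMIs in wild-type. The effect of this on the ratios between the libraries was not tested.

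The selecting genes are classical markers of the lineage. Nkg7, a granule membrane protein needed for degranulation (chr7:43437073-43438249, mm10), had 154 UMIs or 378 CPM in Kif13b-/- and 374 UMIs or 899 CPM in wild-type barcodes. Gzma, a granzyme (chr13:113093825-113100981), had 110 UMIs or 270 CPM in Kif13b-/- and 423 UMIs or 1017 CPM in wild-type. A single Kif13b-/- barcode held 52 of the 110 UMIs. At least 1 Gzma UMI was seen in 8 of 31 Kif13b-/- barcodes (25.8%, 11.9 to 44.6%) and in 54 of 99 wild-type barcodes (54.5%, 44.2 to 64.6%). With each barcode thinned to 800 UMIs these shares were 12.9% in Kif13b-/- and 35.4% in wild-type. Barcodes with at least 3 UMIs of the smooth muscle genes Myh11 and Cnn1, used as a comparison, gave 0.137% in Kif13b-/- and 0.274% in wild-type after the same thinning. Before it they gave 1.67% in Kif13b-/- and 0.602% in wild-type, at median depths of 7216.5 UMIs in Kif13b-/- and 3268 UMIs in wild-type. This comparison set had no C1q limit. In it, 1112 of 3644 Kif13b-/- and 307 of 7312 wild-type barcodes held at least 1% of UMIs from macrophage markers. Its shares thus do not show free RNA alone, here or for the genes below.

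Klre1, a lectin-like receptor of NK cells (chr6:129577905-129585827), had 50 UMIs or 123 CPM in Kif13b-/- and 113 UMIs or 272 CPM in wild-type. Ncr1, the activating receptor NKp46 (chr7:4337724-4345164), had 2 UMIs in Kif13b-/- and 4 in wild-type. Klrb1c, the NK1.1 antigen in strains that carry it (chr6:128778485-128789215), had 6 UMIs in Kif13b-/- and 5 in wild-type. The last pair was thus nearly absent, and in practice the selection rested on Nkg7, Gzma and Klre1.

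Cytotoxic barcodes made up 0.439% of kept barcodes in Kif13b-/- (0.298 to 0.622%) and 0.542% in wild-type (0.441 to 0.660%), a ratio of 0.809 (0.522 to 1.22). The intervals overlap, so no difference in abundance was detectable with this selection. The ratio was 0.685 among barcodes of at least 2000 UMIs and 1.28 among those of at least 5000 UMIs. Where the selecting genes had to reach 1000 CPM of a barcode and 2 UMIs, it was 0.404 (0.218 to 0.700), on 15 Kif13b-/- and 96 wild-type barcodes, an interval that excludes equal shares. T cells without cytotoxic genes, taken as kept barcodes with at least 2 Cd3 UMIs, under 3 UMIs of the selecting genes and the same C1q limit, were at 1.06% in Kif13b-/- (75 barcodes) and 0.947% in wild-type (173 barcodes). The cytotoxic share of both T and NK sets together was 29.2% in Kif13b-/- (20.8 to 38.9%) and 36.4% in wild-type (30.7 to 42.4%).

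**Figure D2:**
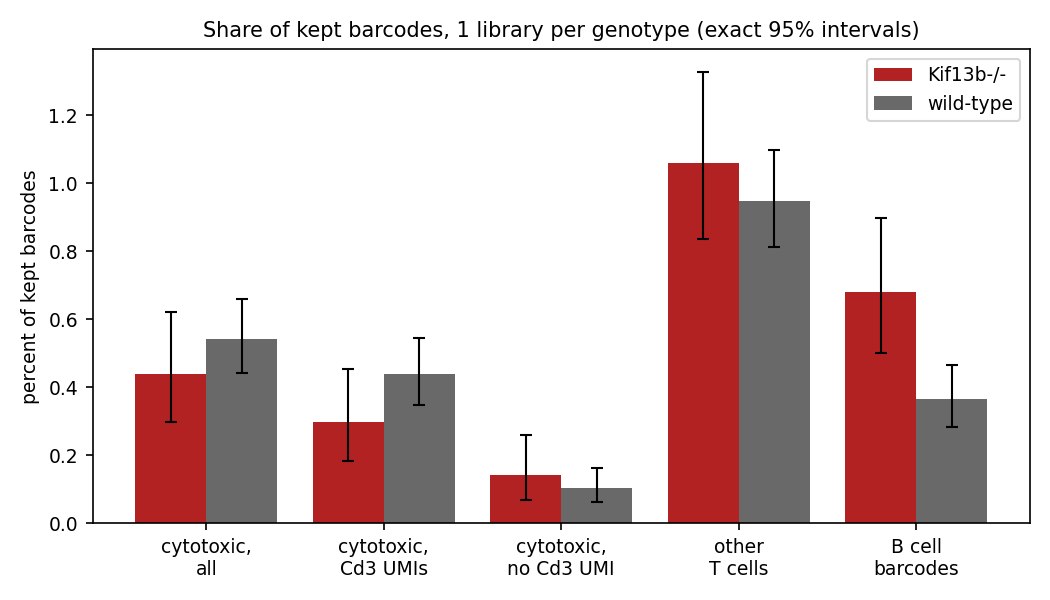
Percent of kept barcodes (y axis) in each library for all cytotoxic barcodes, those with and without Cd3 UMIs, T cells without cytotoxic genes and B cell barcodes, Kif13b-/- in red left of wild-type in grey; lines are exact 95% counting intervals. Cytotoxic barcodes are at 0.439% in Kif13b-/- and 0.542% in wild-type, with overlapping intervals.

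Most cytotoxic barcodes carried the T cell receptor complex. A UMI of Cd3d, Cd3e or Cd3g was present in 21 Kif13b-/- and 80 wild-type barcodes. No Cd3 UMI was seen in 10 of 31 Kif13b-/- barcodes (32.3%, 16.7 to 51.4%) and 19 of 99 wild-type barcodes (19.2%, 11.97 to 28.3%). These shares depend on depth, and at 800 UMIs per barcode they were 58.1% in Kif13b-/- and 42.4% in wild-type. Cd3 UMIs per Cd3-bearing barcode ran up to 69 in Kif13b-/-, with a median of 9, and up to 26 in wild-type, with a median of 5.

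Barcodes with Cd3 UMIs mostly had the profile of CD8 T cells. Cd8a or Cd8b1, the chains of the CD8 coreceptor, was seen in 14 of the 21 Kif13b-/- and 48 of the 80 wild-type barcodes with Cd3. Cd4 was seen in 1 of the Kif13b-/- and 2 of the wild-type barcodes with Cd3. The genes that most separated them from barcodes without Cd3 in both libraries, beside the Cd3 chains that define the split, were Themis (334 CPM with Cd3 and 0 without in Kif13b-/-, 653 and 12.6 CPM in wild-type), which tunes receptor signalling, Cd8b1, the T lineage factor Bcl11b, the chemokine receptor Cxcr6, the checkpoints Ctla4 and Pdcd1, Gzmk, Cd6 and Trac, the receptor's alpha constant region. Of the 32 Ctla4 UMIs in Kif13b-/- barcodes with Cd3, 22 lay in 1 barcode of 23452 UMIs, which also held a Cd4 UMI. Gzmk, a granzyme of memory-like CD8 T cells, had all of its 41 UMIs in barcodes with Cd3 in Kif13b-/- and 65 of 66 in wild-type.

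The pairing of Gzma with Gzmk in barcodes with Cd3 is given as a description, since Gzma was a selecting gene. Both were seen in 5 Kif13b-/- and 12 wild-type barcodes, and Gzmk without Gzma in 5 Kif13b-/- and 21 wild-type barcodes. Gzma without Gzmk was seen in 1 Kif13b-/- and 28 wild-type barcodes. Neither was seen in 10 Kif13b-/- and 19 wild-type barcodes.

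Barcodes without Cd3 UMIs were mixed, and a missing Cd3 UMI does not show that a cell lacked Cd3. A UMI of Trac, Trbc1 or Trbc2 was seen in 5 of the Kif13b-/- and 7 of the wild-type barcodes of this kind. Of the 10 in Kif13b-/-, 8 held at least 3 of 10 NK markers outside the selecting genes, and of the 19 in wild-type, 8 did. These counts do not set them apart, since 16 of 21 Kif13b-/- and 32 of 80 wild-type barcodes with Cd3 did so too. Of the barcodes without Cd3 that held them, 2 in Kif13b-/- and 1 in wild-type also had at least 100 UMIs of the MHC class II gene H2-Eb1. Ncr1 or Klrb1c was seen in 5 Kif13b-/- and 4 wild-type barcodes of this kind, against 1 Kif13b-/- and 0 wild-type barcodes with Cd3. The Ly49 receptors Klra4 or Klra8 were seen in 2 Kif13b-/- and 4 wild-type barcodes without Cd3. Kit, the stem cell factor receptor, which some NK cells and other innate lymphoid cells carry, was at 218 CPM without Cd3 and 11.9 CPM with Cd3 in Kif13b-/-, and at 215 and 35.6 CPM in wild-type. Irf8, a transcription factor of NK and dendritic cells, was at 392 and 55.6 CPM in Kif13b-/- and at 417 and 23.7 CPM in wild-type. Cd8a or Cd8b1 was seen in 1 Kif13b-/- and 0 wild-type barcodes without Cd3. Markers of type 3 innate lymphoid cells, Il23r, Il17a and Il22 among them, had no UMI in any cytotoxic barcode of either library (0 of 4 detected). Of 7 markers of type 2 innate lymphoid cells 4 were detected in each library, at 520 CPM in Kif13b-/- and 421 CPM in wild-type, with Il1rl1, Il5 and Il13 at 0 in both. Of 6 markers of mast cells and basophils 1, Kit, was detected in Kif13b-/- at 90.8 CPM and 2, Kit and Cpa3, in wild-type at 76.9 CPM, with Mcpt4, Mcpt8, Ms4a2 and Fcer1a at 0 in both.

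The remaining wild-type barcodes without Cd3 held few markers of the label and also held stromal RNA. All 11 of them held under 3 NK markers and under 3 CD8 T markers and at least 1% of their UMIs from stromal markers, and 2 Kif13b-/- barcodes were of the same kind. Smooth muscle genes stood among the leaders of barcodes without Cd3, with the actin Acta2 at 1303 CPM without Cd3 and 234 CPM with Cd3 in Kif13b-/- and at 1859 and 445 CPM in wild-type. Of all cytotoxic barcodes, at least 3 NK or at least 3 CD8 T markers were present in 28 of 31 Kif13b-/- (90.3%) and 75 of 99 wild-type barcodes (75.8%). At least 3 of the full list of 12 NK markers were held by 212 of 3644 Kif13b-/- and 44 of 7312 wild-type smooth muscle barcodes. For the full list of 10 CD8 T markers these numbers were 89 in Kif13b-/- and 65 in wild-type. Such counts of markers rise with depth, at medians of 7533 UMIs in Kif13b-/- and 3756 UMIs in wild-type, and were not made at equal depth. The 11 wild-type barcodes above held 22804 UMIs together. A Ccl5 UMI was seen in 17 of all 19 wild-type barcodes without Cd3, and in 12.6% of wild-type smooth muscle barcodes. Ptprc, the pan-leukocyte gene, had no UMI in 3 Kif13b-/- and 12 wild-type barcodes.

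**Figure D3:**
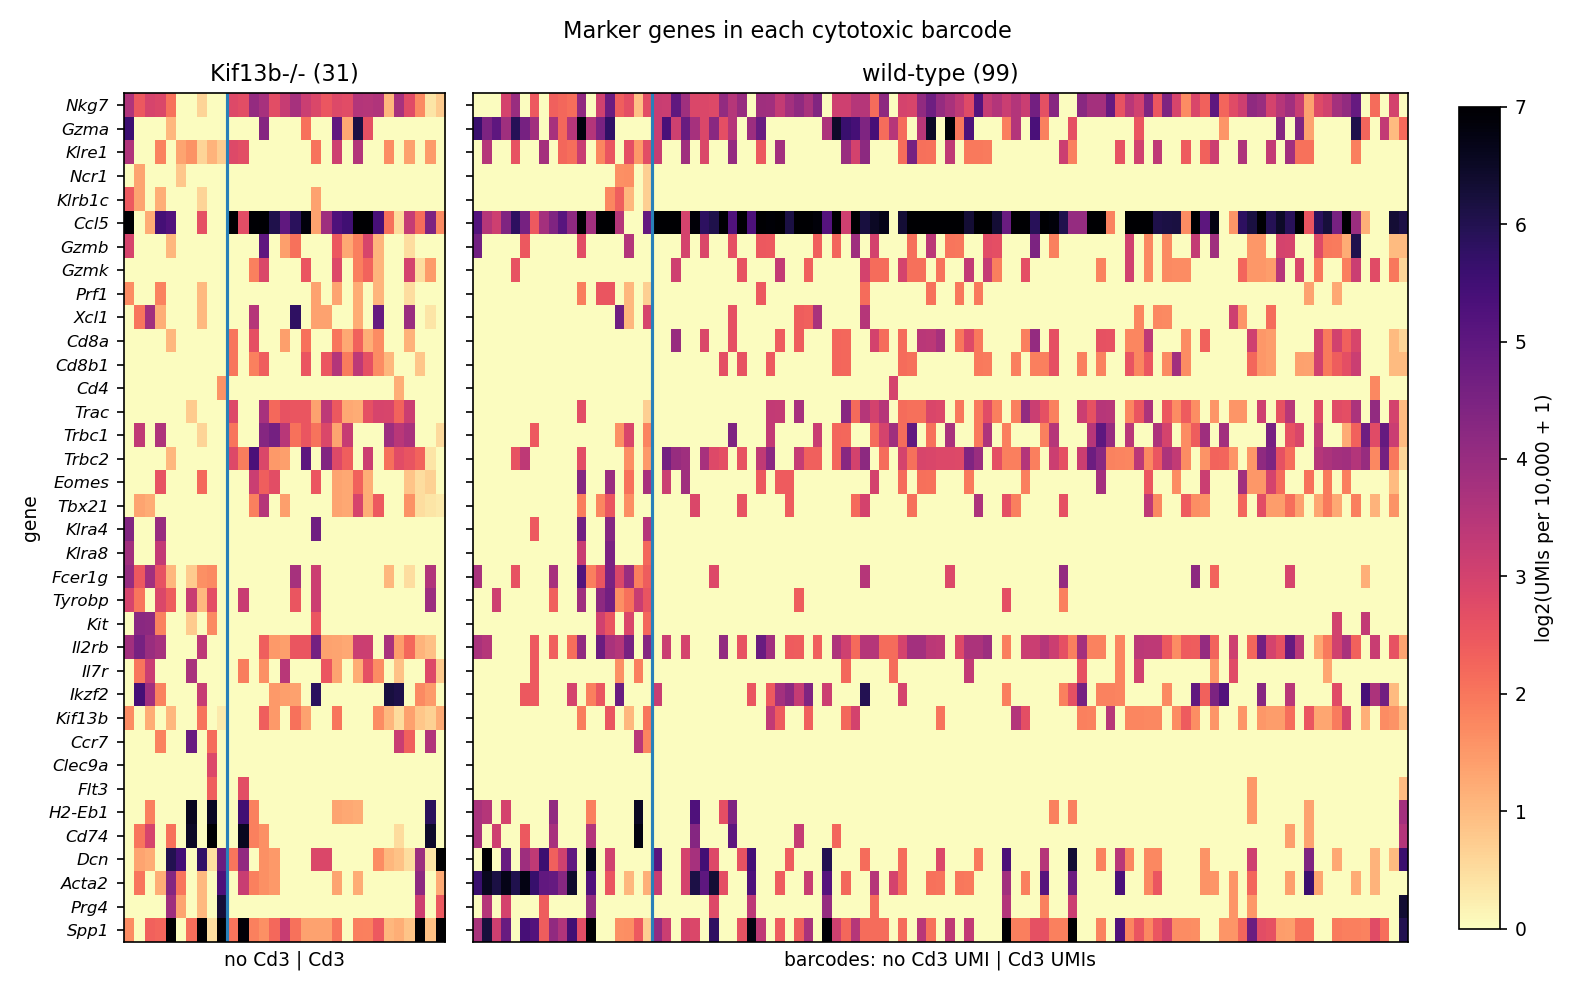
Each column is 1 cytotoxic barcode and each row 1 gene, coloured by log2(UMIs per 10000 + 1), with Kif13b-/- on the left and wild-type on the right; the blue line divides barcodes without Cd3 UMIs (left of it) from those with them, each side ordered by depth. Cd8a, Trac and Gzmk lie almost wholly right of the line, Klra4, Klra8 and Ncr1 mostly left of it, and Acta2 has UMIs in 15 of the 19 wild-type barcodes without Cd3.

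The 8 deepest Kif13b-/- barcodes were of several kinds. A barcode of 24718 UMIs was led by Xcl1 (36 UMIs), Camk4 and the receptor gene Trbc1, and a barcode of 23452 UMIs by Ikzf2 (157 UMIs) with Nkg7 at 29 and Cd3 at 69 UMIs. The latter also had Tnfrsf4 (24 UMIs) and Ctla4 (22 UMIs) among its leading genes. It was the 1 Kif13b-/- barcode with Cd3 that held a Cd4 UMI. In contrast, a barcode of 26363 UMIs had among its 5 leading genes the MHC class II genes H2-Eb1 (242 UMIs) and H2-Aa (207 UMIs) and Clec9a (16 UMIs), a receptor of cross-presenting dendritic cells. A barcode of 33820 UMIs held Ccr7 (37 UMIs) and Ccl22 (24 UMIs), genes of migratory dendritic cells, beside 13 Cd3 UMIs. The barcode of 46113 UMIs was led by Chl1 (65 UMIs) and the lubricin gene Prg4 (353 UMIs), and that of 43822 UMIs by the protease inhibitor Cst3 (2315 UMIs), with 4972 UMIs of the matrix and macrophage protein Spp1, and each had 3 UMIs of the selecting genes. The barcode of 19279 UMIs was led by Il2rb (18 UMIs), with Irf8 (22 UMIs) and Ptprc (47 UMIs) among the first 5 and the matrix gene Acan (26 UMIs) at rank 12. The barcode of 26092 UMIs had the matrix gene Abi3bp (49 UMIs) at rank 3, Trbc2 (10 UMIs) at rank 4 and Nkg7 (6 UMIs) at rank 12. Whether such droplets held more than 1 cell was not tested, and doublet scoring by its automatic threshold marked 1 barcode in the whole Kif13b-/- library and 0 in wild-type, so it did not work here.

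RNA of other cell types in the cytotoxic barcodes is given for several of the marker lists as summed CPM. Fibroblast markers were at 6161 CPM in Kif13b-/- and 1992 CPM in wild-type, and ran per barcode from 0 to 2.66% of UMIs in Kif13b-/- and from 0 to 3.36% in wild-type. Dendritic cell markers, 7 of 8 detected in each library, were at 491 CPM in Kif13b-/-, with Siglech at 0, and at 96.1 CPM in wild-type, with Clec9a at 0. Smooth muscle markers were at 1651 CPM in Kif13b-/- and 1675 CPM in wild-type, macrophage markers at 447 and 351 CPM, and B cell markers at 164 and 156 CPM with Cd79b at 0 in both. Neutrophil markers were at 2.45 CPM in Kif13b-/- and 0 in wild-type, and haemoglobin genes were at 0 in both. CD4 T cell markers, which include Cd3e and Trac, were at 564 CPM in Kif13b-/- and 999.7 CPM in wild-type, with Cd40lg at 0 in both. Regulatory T cell markers were at 194 CPM in Kif13b-/- and 226 CPM in wild-type, with Foxp3 at 0 in wild-type. At least 3 of the 5 regulatory T cell markers were held by 2 Kif13b-/- and 1 wild-type barcodes. Gamma delta T cell markers were at 36.8 CPM in Kif13b-/- and 118 CPM in wild-type. At least 3 of these 6 markers were held by 1 Kif13b-/- and 2 wild-type barcodes. Plasma cell markers were at 113 CPM in Kif13b-/- and 81.7 CPM in wild-type. The part of this RNA in the differences between the libraries was not tested, except where values without such barcodes are given.

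Kif13b, the gene targeted in the study (chr14:64647265-64809617), was detected in both libraries. It had 36 UMIs or 88.3 CPM in Kif13b-/- and 63 UMIs or 151 CPM in wild-type cytotoxic barcodes, a log2 ratio of -0.77 (-1.41 to -0.16). In all other kept barcodes it was at 43.4 CPM in Kif13b-/- and 70.0 CPM in wild-type. With each barcode weighing the same the log2 ratio in cytotoxic barcodes was -0.41, within a ratio of 1.5. A 3' tag does not check a deletion that lies elsewhere in the gene, and no source used here gives the position of the deletion. Mertk (chr2:128698956-128802894) had 14 UMIs in Kif13b-/-, of which 11 were in 1 barcode, and 3 UMIs in wild-type, and its share of barcodes with a UMI, 9.68% in Kif13b-/- and 3.03% in wild-type, was below that of smooth muscle barcodes, 34.3% and 29.1%.

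Across all 6180 genes with at least 20 UMIs over both libraries, 1019 (16.5%) were higher and 1453 (23.5%) lower in Kif13b-/- cytotoxic barcodes, and the median log2 ratio was -0.14. With each barcode weighing the same, 836 (13.5%) were higher and 1112 (18%) lower, the median was -0.06, and 545 higher and 727 lower genes were shared by both ways of counting. Among barcodes under 15000 UMIs, 550 (11.6%) of 4731 genes were higher and 993 (21%) lower, at a median of -0.10. The split depended on scaling, with 1388 higher and 954 lower under median-ratio scaling, which moved the median of all genes to 0.05, and with 1229 and 1163 under TMM scaling, another scaling between libraries. These percentages are the background against which the lists below are read, and the lists were chosen with earlier results of these data known.

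Cargo of the lytic granule was given by 14 measured genes of 17, of which 0 were higher and 7 lower, with a median log2 ratio of -0.54. The 7 were the selecting genes Gzma and Nkg7, then Gzmb, Gzmk, Fasl, Ctsc and Tnfsf10, and 4 of them were also lower with each barcode weighing the same, where the median was -0.23. Among barcodes under 15000 UMIs 2 of 14 were higher and 6 lower, at a median of 0.01. Over 22 alternative settings the median of the list ran from -0.79 to 0.07 and was above 0 in 2 of them. Without the selecting genes 0 of 12 were higher and 5 lower, at a median of -0.40, and 2 of the 5 were also lower with equal weights, where the median was 0.03. Gzmb, the granzyme that triggers apoptosis in target cells, had 35 UMIs in 11 Kif13b-/- barcodes and 134 UMIs in 37 wild-type barcodes, or 85.9 and 322 CPM, a log2 ratio of -1.89 (-2.49 to -1.36). A single wild-type barcode held 49 of those UMIs, and with each barcode weighing the same the ratio was -0.56, within a ratio of 1.5. Gzmk had a log2 ratio of -0.65 (-1.26 to -0.07) summed and -0.39 with equal weights. The proteoglycan Srgn, which packs granzymes into the granule, did not pass, at 1013 CPM in Kif13b-/- and 923 CPM in wild-type, and neither did the protease Ctsd (218 and 199 CPM). The granzyme inhibitor Serpinb6b did not pass in sum (184 and 127 CPM, 0.53) but was higher with equal weights, at 0.70.

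Transport and release of granules and the immune synapse were covered by 16 measured genes, 1 higher and 9 lower, with a median of -0.72 and of -0.14 with equal weights, where 2 of the 9 stayed lower, and of -0.31 among barcodes under 15000 UMIs. Kif13b itself is among the 9. Dock2, which drives actin remodelling in lymphocytes, was at 501 CPM in Kif13b-/- and 1120 CPM in wild-type (-1.16, and -0.56 with equal weights). Its relative Dock8 was at 137 and 279 CPM (-1.01, and -0.29 with equal weights), while Coro1a, an actin regulator, was at 243 and 298 CPM. In T cells without cytotoxic genes Dock2 was at 784 CPM in Kif13b-/- and 778 CPM in wild-type.

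Inhibitory and C-type lectin NK receptors gave 5 lower and 0 higher genes of 10 measured, with a median of -0.78, and all 5 were also lower with equal weights, where the median was -0.44. They were Klrd1, the selecting gene Klre1, Klra7, Tigit and Cd200r1. Among barcodes under 15000 UMIs 4 of 10 were higher and 2 lower, at a median of -0.26. Without the selecting gene 0 of 9 were higher and 4 lower, at medians of -0.43 from summed UMIs and -0.19 with equal weights, and of -0.07 among barcodes under 15000 UMIs. Where the selecting genes had to reach 1000 CPM of a barcode, the median of the list with Klre1 turned to 0.23. Klrd1, the CD94 chain that pairs with NKG2 receptors, was at 120 CPM in Kif13b-/- and 288 CPM in wild-type, a log2 ratio of -1.25 (-1.77 to -0.77) that was -0.48 among barcodes under 15000 UMIs. Klra7, a Ly49 receptor, had 9 UMIs in 3 Kif13b-/- barcodes and 38 UMIs in 13 wild-type barcodes (-1.99, -3.28 to -0.97). Tigit, an inhibitory receptor of T and NK cells, had 5 UMIs in Kif13b-/- and 22 in wild-type. Klrc1, the NKG2A chain, was within the ratio at 228 CPM in Kif13b-/- and 252 CPM in wild-type, as was Cd96 (44.2 and 52.9 CPM). Klra4 was within it in sum (90.8 and 84.1 CPM, in 3 and 4 barcodes) but higher with equal weights, at 1.63. Ly49 genes are near-identical copies between which counting can split reads, so the Klra values are uncertain.

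Activating NK receptors and their adaptors went both ways, with 3 higher and 4 lower of 12 measured and a median of -0.44, which was 0.19 with equal weights and 0.27 among barcodes under 15000 UMIs. With equal weights all 3 stayed higher and 1 of the 4 stayed lower. Tyrobp, the adaptor DAP12, had 101 UMIs in 11 Kif13b-/- barcodes and 49 UMIs in 12 wild-type barcodes, a log2 ratio of 1.07 (0.57 to 1.60). A single Kif13b-/- barcode held 48 of them, smooth muscle barcodes held a Tyrobp UMI in 49.3% of cases in Kif13b-/- and 16.0% in wild-type, and among barcodes without Cd3 the ratio was -1.07. Fcer1g, an adaptor with a UMI in 49.8% of smooth muscle barcodes in Kif13b-/- and 18.9% in wild-type, was at 216 CPM in Kif13b-/- and 202 CPM in wild-type. Sh2d2a, an adaptor of T cell activation, was at 155 CPM in Kif13b-/- and 344 CPM in wild-type (-1.15, and -0.71 with equal weights). Hcst, the adaptor DAP10 of the receptor NKG2D, was lower in sum (-0.61) but not with equal weights (0.07), and Cd247, the zeta chain, was at -0.75 and -0.17. Klrk1, NKG2D itself, was at 218 CPM in Kif13b-/- and 286 CPM in wild-type, and Sh2d1a was at 88.3 and 127 CPM.

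**Figure D4:**
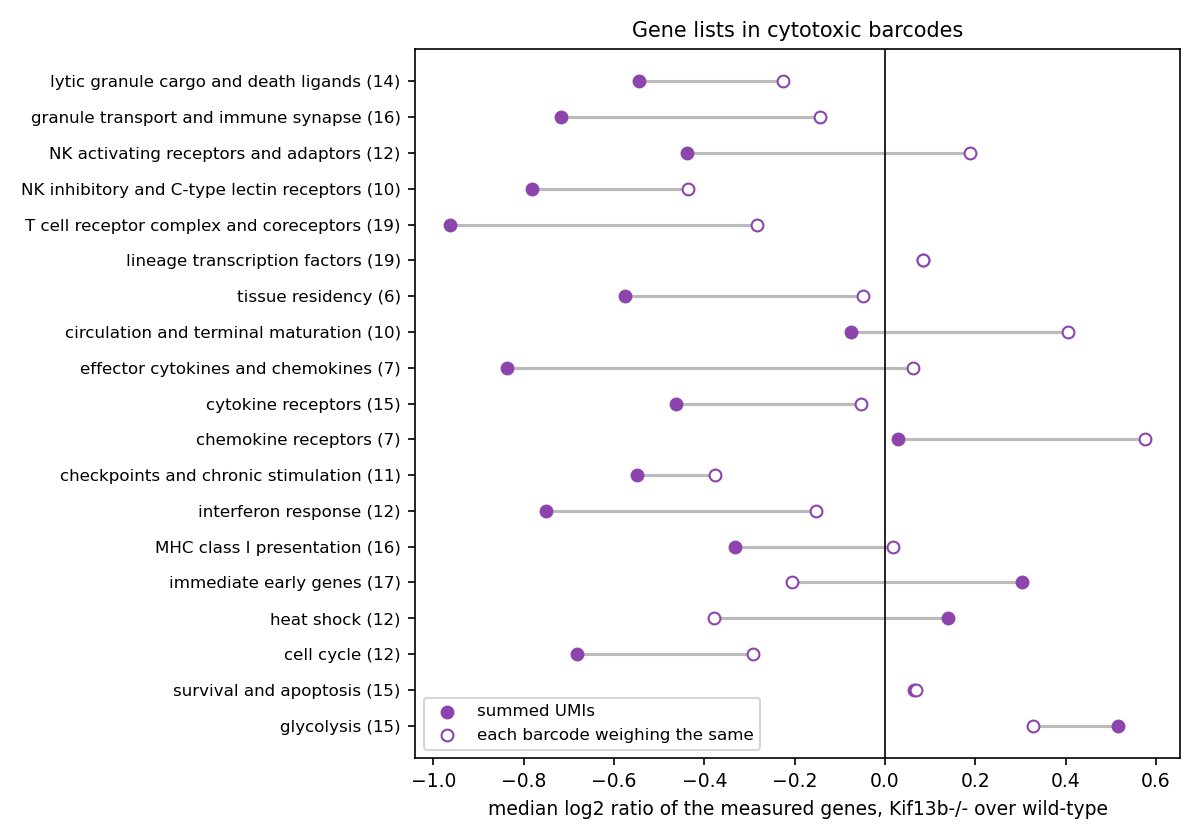
Median log2 ratio, Kif13b-/- over wild-type, of the measured genes of each list (x axis), from summed UMIs (filled) and with each barcode weighing the same (open); the number of measured genes is in brackets. The T cell receptor list is lowest from summed UMIs at -0.96 and the glycolysis list highest at 0.52, with open points at -0.28 and 0.33.

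The T cell receptor complex and its coreceptors gave 14 lower and 0 higher of 19 measured genes, with a median of -0.96, and 8 of the 14 were also lower with equal weights, where the median was -0.28. Cd3g was at 272 CPM in Kif13b-/- and 596 CPM in wild-type (-1.13, -1.47 to -0.80), and Cd3e at 177 and 433 CPM (-1.29, -1.71 to -0.89). Cd3d did not pass, at 267 CPM in Kif13b-/- and 305 CPM in wild-type. Cd8a had 19 UMIs in 11 Kif13b-/- barcodes and 76 UMIs in 36 wild-type barcodes, a log2 ratio of -1.94 (-2.78 to -1.23), and of -1.11 with equal weights. Themis was at 206 CPM in Kif13b-/- and 531 CPM in wild-type (-1.36, and -0.67 with equal weights). The receptor's beta constant region Trbc2 (267 CPM in Kif13b-/- and 574 CPM in wild-type, -1.10) was within the ratio with equal weights, at -0.28, and Trbc1 (321 and 473 CPM) and the costimulator Cd28 (145 and 197 CPM) were so in both ways. Within barcodes with Cd3 the median was -0.59, and among barcodes under 15000 UMIs, where 7 of 19 were lower, it was -0.29. Where the selecting genes had to reach 1000 CPM of a barcode, the median turned to 0.15.

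Effector cytokines and chemokines had 7 measured genes of 16, with 2 higher and 4 lower at a median of -0.84, which was 0.06 with equal weights and 0.29 among barcodes under 15000 UMIs. With equal weights 1 of the 2 stayed higher and 2 of the 4 stayed lower. Ccl5, the chemokine RANTES and the most abundant of the 7, is a defining product of cytotoxic lymphocytes. It had 986 UMIs in Kif13b-/-, or 2419 CPM, and 3267 UMIs in wild-type, or 7851 CPM, a log2 ratio of -1.70 (-1.80 to -1.60). Per barcode it ran from 0 to 120 UMIs in Kif13b-/- with a median of 21 and from 0 to 135 UMIs in wild-type with a median of 27, and the mean level per barcode was 4954 CPM in Kif13b-/- and 9056 CPM in wild-type (-0.87). These ranges of raw UMIs overlap almost wholly, but at unlike depth, with medians of 7533 UMIs per barcode in Kif13b-/- and 3756 in wild-type. Among barcodes under 15000 UMIs the log2 ratio was -0.62. Where the selecting genes had to reach 1000 CPM of a barcode it was -0.33, within a ratio of 1.5. A Ccl5 UMI was seen in 61.3% of Kif13b-/- and 82.8% of wild-type barcodes at 800 UMIs, against 8.62% and 6.26% of smooth muscle barcodes. The same direction was seen in T cells without cytotoxic genes, at 713 CPM in Kif13b-/- and 1265 CPM in wild-type. Ccl4, another chemokine of activated lymphocytes and of macrophages, was at 68.7 CPM in Kif13b-/- and 190 CPM in wild-type (-1.45), below its level in all other kept barcodes, 959 and 1178 CPM.

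Xcl1, the lymphotactin that draws cross-presenting dendritic cells, went the other way. It had 118 UMIs in 12 of 31 Kif13b-/- barcodes and 43 UMIs in 14 of 99 wild-type barcodes, or 290 and 103 CPM, a log2 ratio of 1.48 (0.97 to 2.03) that was 2.17 with equal weights and 2.49 among barcodes under 15000 UMIs. Of the 118 Kif13b-/- UMIs, 95 were in 3 barcodes, with 36, 34 and 25 UMIs, and the other 9 held 1 to 10, while the highest 3 wild-type barcodes held 27 of 43 UMIs. At 800 UMIs per barcode 3 of 31 Kif13b-/- and 4 of 99 wild-type barcodes held a UMI. Before thinning, smooth muscle barcodes held a UMI in 0.576% of cases in Kif13b-/- and 0.150% in wild-type. The excess lay in barcodes with Cd3, at 409 CPM in Kif13b-/- and 56.4 CPM in wild-type, and without Cd3 the levels were 96.3 and 304 CPM. Ltb was at 39.3 CPM in Kif13b-/- and 111 CPM in wild-type (-1.47, and -0.52 with equal weights), and Tgfb1 was within the ratio at 211 and 260 CPM. Interferon gamma, Ifng, had too few UMIs to be measured and was seen in 2 Kif13b-/- and 10 wild-type barcodes.

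**Figure D5:**
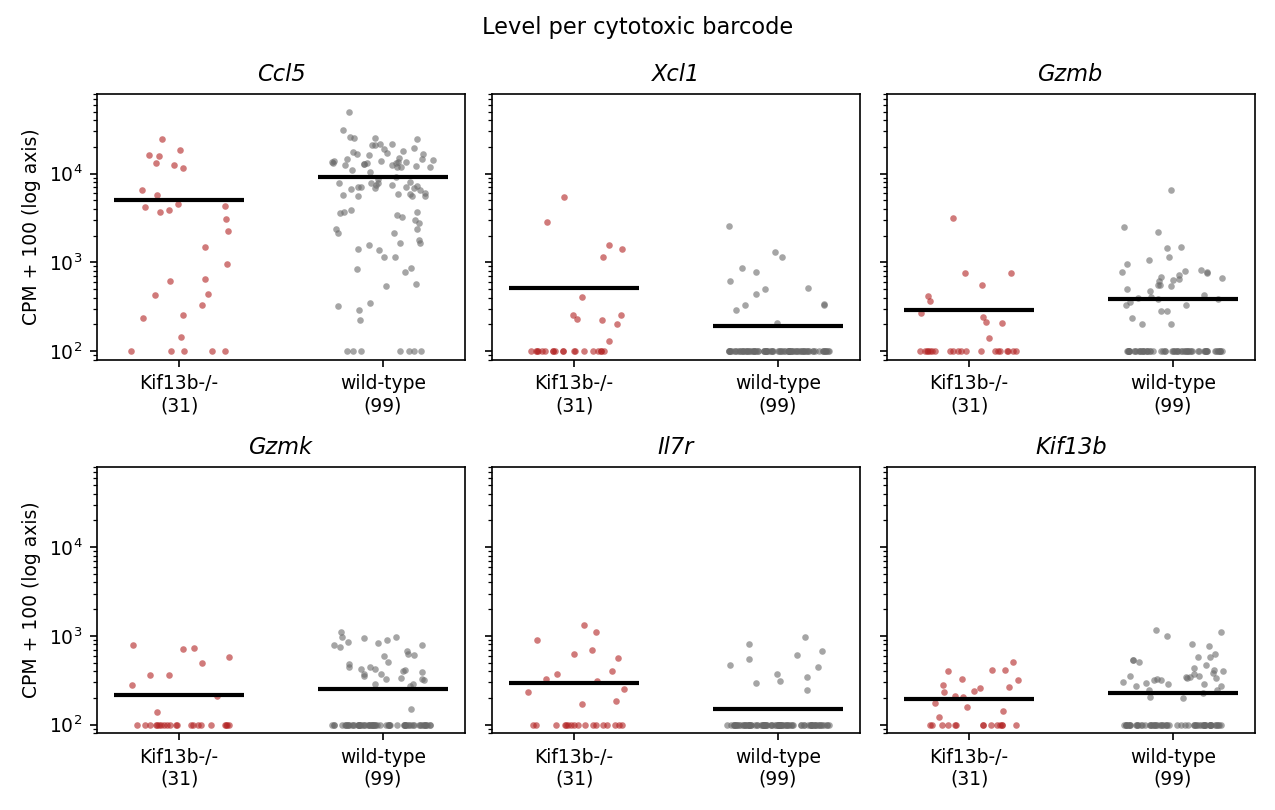
Level of 6 genes in each cytotoxic barcode as CPM + 100 on a log axis (y), Kif13b-/- left of wild-type in every panel; points are barcodes, points at 100 hold no UMI and the black bar is the mean over barcodes. Ccl5 averages 4954 CPM in Kif13b-/- and 9056 CPM in wild-type and Xcl1 419 and 89.4 CPM, with wide overlap of the barcodes.

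Lineage transcription factors had 3 higher (Ikzf2, Irf8 and Tcf7) and 7 lower of 19 measured genes, the lower ones including the cytotoxic lineage factors Eomes and Tbx21. Of the 7, 1 stayed lower with equal weights, and the median was 0.08 in both ways of counting and 0.16 among barcodes under 15000 UMIs. That gene was Tox, a factor of chronically stimulated T cells, with 70 UMIs in 13 Kif13b-/- barcodes and 292 UMIs in 43 wild-type barcodes, or 172 and 702 CPM, a log2 ratio of -2.02 (-2.43 to -1.65) and of -0.86 with equal weights. Ikzf2, the factor Helios, was at 810 CPM in Kif13b-/- and 500 CPM in wild-type (0.69, 0.44 to 0.95, and 0.93 with equal weights), with 157 of 330 Kif13b-/- UMIs in 1 barcode. Ets1 (-0.59) and Runx3 (-0.92), which uphold T and NK cell identity, were lower in sum but at 0.08 and -0.18 with equal weights. Id2, Zeb2 and Rora were within the ratio, at 532, 395 and 432 CPM in Kif13b-/- and 502, 377 and 332 CPM in wild-type.

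Genes of tissue residency gave 3 lower and 0 higher of 6 measured, with a median of -0.57 and of -0.05 with equal weights, and 1 higher and 0 lower at a median of 0.17 among barcodes under 15000 UMIs. Rgs1, which damps chemokine receptor signalling, was at 302 CPM in Kif13b-/- and 586 CPM in wild-type (-0.96, and -0.66 with equal weights). It was at -0.34 among barcodes under 15000 UMIs. Cxcr6 was at 83.4 CPM in Kif13b-/-, in 15 barcodes, and 223 CPM in wild-type, in 35 barcodes (-1.41, -2.03 to -0.84), with -0.82 at equal weights and -0.55 among barcodes under 15000 UMIs. Cd69 was lower in sum (-0.76) but at 0.13 with equal weights, and Crem and Itga1 were within the ratio. Rgs2 was within it in sum (0.27) but higher with equal weights, at 0.76.

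Checkpoints and markers of chronic stimulation had 5 lower and 0 higher of 11 measured genes, with 4 of the 5 also lower with equal weights and medians of -0.55 and -0.38. Among barcodes under 15000 UMIs 6 of 11 were lower and 1 higher, at a median of -0.67. Beside Tox and Tigit these were Entpd1, the ectoenzyme CD39, with 8 UMIs in 5 Kif13b-/- barcodes and 49 UMIs in 28 wild-type barcodes (-2.51, -3.87 to -1.49), Pdcd1, the receptor PD-1, at 78.5 and 161 CPM (-1.02, and -0.49 with equal weights), and Havcr2, the receptor TIM-3, at 34.4 and 57.7 CPM (-0.73, -1.81 to 0.26). The interval of Havcr2 includes equal levels. The nuclear receptors Nr4a1, Nr4a2 and Nr4a3, induced by antigen receptor signals, did not pass in sum, at 211, 321 and 405 CPM in Kif13b-/- and 154, 368 and 320 CPM in wild-type. With equal weights Nr4a3 was higher, at 0.99.

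Several genes of these lists had the opposite order in T cells without cytotoxic genes of the same libraries. There Tox was at 991 CPM in Kif13b-/- and 521 CPM in wild-type (0.93, 0.74 to 1.11), Pdcd1 at 224 and 110 CPM (1.03), Cxcr6 at 352 and 221 CPM (0.67) and Rgs1 at 428 and 331 CPM (0.37). With each barcode weighing the same, the ratios in these T cells were 1.12 for Tox, 1.02 for Pdcd1, 0.99 for Cxcr6 and 0.48 for Rgs1. Xcl1 was at 24.2 CPM in Kif13b-/- and 55.4 CPM in wild-type, on 14 UMIs in 2 barcodes and 46 UMIs in 13 barcodes. The difference between the 2 sets of barcodes was not tested, as there is 1 library per genotype.

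Among cytokine receptors, 1 of 15 measured genes was higher and 5 were lower, with a median of -0.46 that was -0.05 with equal weights and 0.09 among barcodes under 15000 UMIs. With equal weights the 1 higher gene stayed higher and 2 of the 5 stayed lower. The higher gene was Il7r, the survival receptor of naive, memory and innate-like lymphocytes, with 70 UMIs in 14 of 31 Kif13b-/- barcodes and 21 UMIs in 12 of 99 wild-type barcodes, or 172 and 50.5 CPM. Its log2 ratio was 1.74 (1.05 to 2.55), and 1.87 with equal weights, but at 800 UMIs per barcode 4 barcodes of each library held a UMI (12.9% in Kif13b-/- and 4.04% in wild-type, against 1.89% and 1.68% of smooth muscle barcodes). The 3 Kif13b-/- barcodes with at least 100 UMIs of H2-Eb1 held 38 of its 70 UMIs and the 1 such wild-type barcode 3 of 21. Without these barcodes, a limit chosen after the data were seen, Il7r was at 96.2 CPM in Kif13b-/- and 44.5 CPM in wild-type (1.09, 0.24 to 2.03). Il18rap, a chain of the interleukin 18 receptor, had 14 UMIs in Kif13b-/- and 51 in wild-type (-1.80, -2.80 to -0.96, and -1.35 with equal weights). Il2rb, the shared beta chain of the interleukin 2 and 15 receptors, was at 319 CPM in Kif13b-/- and 685 CPM in wild-type (-1.10), within the ratio with equal weights (-0.37). Ifngr1 was lower in sum (-0.65) but at 0.08 with equal weights, and Tnfrsf1b, Tgfbr2 and Il21r were within the ratio.

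Chemokine receptors gave 2 higher and 1 lower of 7 measured genes, with a median of 0.03 that was 0.58 with equal weights and 0.53 among barcodes under 15000 UMIs. With equal weights 1 of the 2 stayed higher, and the 1 lower gene stayed lower. Ccr7, the lymph node homing receptor of naive T cells and mature dendritic cells, had 117 UMIs in 6 Kif13b-/- barcodes and 15 UMIs in 2 wild-type barcodes (2.95, 2.21 to 3.88). The barcodes with 40 and 37 of the Kif13b-/- UMIs also held 144 and 194 UMIs of the MHC class II gene H2-Eb1, and the wild-type barcode with 11 of the 15 held 101. Without the barcodes of at least 100 H2-Eb1 UMIs, Ccr7 had 31 UMIs in Kif13b-/- and 4 in wild-type (3.07, 1.74 to 5.20).

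From summed UMIs glycolysis had the highest median of the 19 lists in Kif13b-/-, with 7 higher and 0 lower of 15 measured genes and a median of 0.52. With equal weights 5 of the 7 were also higher, and the median was 0.33, below those of the chemokine receptors and of circulation and maturation. Among barcodes under 15000 UMIs, however, 3 of 12 were higher and 2 lower, at a median of 0.10. Hk2, the inducible hexokinase, was at 150 CPM in Kif13b-/- and 36.0 CPM in wild-type (2.02, 1.22 to 2.98, and 1.18 with equal weights), in 11 and 12 barcodes. The Hk2 ratio was -0.17 where the selecting genes had to reach 1000 CPM of a barcode. Pkm was at 221 and 130 CPM (0.76, 0.26 to 1.28), Gpi1 at 135 and 76.9 CPM (0.80, and 0.54 with equal weights) and Pgk1 at 98.1 and 57.7 CPM (0.75, and 0.00 with equal weights). Gapdh, Ldha and Aldoa were within the ratio, at 569, 248 and 213 CPM in Kif13b-/- and 442, 173 and 149 CPM in wild-type. In all other kept barcodes Pkm was at 378 and 301 CPM and Hk2 at 148 and 167 CPM, and the part of such RNA in the levels of cytotoxic barcodes was not tested.

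Interferon response genes had 1 higher and 8 lower of 12 measured, with a median of -0.75 and of -0.15 with equal weights. There 3 of the 8 stayed lower and the 1 higher gene did not stay higher. The median was -0.07 among barcodes under 15000 UMIs. Ifi27l2a, an interferon-induced gene, was at 90.8 CPM in Kif13b-/- and 159 CPM in wild-type (-0.80), and Irf1, within the ratio, was at 95.7 and 142 CPM. MHC class I genes had 6 lower and 0 higher of 16, with a median of -0.33 that was 0.02 with equal weights and -0.09 among barcodes under 15000 UMIs. With equal weights 1 of the 6 stayed lower. H2-K1 was at 1421 CPM in Kif13b-/- and 2490 CPM in wild-type (-0.81) and H2-D1 at 903 and 1365 CPM (-0.60), though with equal weights they were at -0.27 and -0.33, and B2m was within the ratio at 1401 and 1915 CPM.

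Cell cycle genes had 7 lower and 0 higher of 12 measured, at a median of -0.68. With equal weights 3 of the 7 stayed lower, at a median of -0.29. The median was 0.02 among barcodes with Cd3, -1.82 among those without and -0.93 among barcodes under 15000 UMIs. Where the selecting genes had to reach 1000 CPM of a barcode it was 0.86. Stmn1, a microtubule regulator of dividing cells, was at 98.1 CPM in Kif13b-/- and 252 CPM in wild-type (-1.35, -1.93 to -0.82, and -2.24 among barcodes under 15000 UMIs), Hmgb2 at 562 and 956 CPM (-0.77, and -0.23 with equal weights), and Pcna, within the ratio, at 223 and 199 CPM. A UMI of the proliferation genes Mki67 or Top2a was seen in 5 of 31 Kif13b-/- and 14 of 99 wild-type barcodes. Survival and apoptosis genes had 3 lower and 0 higher of 15, with 1 of the 3 also lower with equal weights, and a median of 0.06 that was 0.07 with equal weights and among barcodes under 15000 UMIs. They included Bcl2 at 93.2 CPM in Kif13b-/- and 171 CPM in wild-type (-0.86, and -0.55 with equal weights), while Bcl2a1b was within the ratio at 410 and 279 CPM.

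Immediate early genes, which tissue dissociation can induce, had 4 higher and 1 lower of 17, with a median of 0.30 that was -0.21 with equal weights and -0.05 among barcodes under 15000 UMIs. Heat shock genes had 3 higher and 0 lower of 12, with medians of 0.14, of -0.38 with equal weights and of -0.36 under 15000 UMIs. Circulation and maturation genes had 2 higher and 3 lower of 10, with medians of -0.07, of 0.41 with equal weights and of 0.33 under 15000 UMIs. With equal weights 1 of the 4 higher immediate early genes stayed higher, and the 1 lower gene stayed lower. Of the heat shock genes 0 of the 3 stayed higher. Of the circulation genes 1 of the 2 stayed higher and 0 of the 3 stayed lower. The direction of these 3 lists thus depended on how barcodes were weighed.

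The genes with the highest ratios mostly came from single deep barcodes. Of 1136 genes eligible to be named, 213 were higher and 923 lower in Kif13b-/-. Chl1, a neural adhesion molecule, had 66 UMIs in Kif13b-/-, 65 of them in the barcode of 46113 UMIs, and 0 in wild-type. Its level was 22.5-fold that of a floor of 3 UMIs over the wild-type barcodes. This fold leaves out counting error in the Kif13b-/- UMIs, and the interval of the log2 ratio began at 4.15. On the same footing Tnfrsf11a, the receptor RANK (32 UMIs in 4 barcodes), was at 10.9-fold the floor (interval from 3.06). Ccl22 (24 of 25 UMIs in 1 barcode) was at 8.51-fold (from 2.68) and Flrt3 at 8.17-fold (from 2.62). The retinal dehydrogenase Aldh1a3 (all 23 UMIs in 1 barcode) was at 7.83-fold (from 2.55). Bmper (20 of 21 UMIs in 1 barcode) was at 7.15-fold (from 2.41). The acute phase protein Saa3 (252 UMIs in 4 Kif13b-/- and 6 UMIs in 5 wild-type barcodes, 5.31), the nitric oxide synthase Nos2 (44 UMIs, all in 1 barcode, against 1 UMI, 4.92), Tbc1d8 (4.59), Clmp (4.42), Gpr137b (3.81, in 9 and 2 barcodes) and osteopontin, Spp1 (7576 UMIs against 553 UMIs, 3.80), completed the 12. Of the Kif13b-/- Spp1 UMIs, 4972 were in 1 barcode. Its mean level per cytotoxic barcode was 7658 CPM in Kif13b-/- and 1444 CPM in wild-type. In all other kept barcodes Spp1 was at 14189 CPM in Kif13b-/- and 14546 CPM in wild-type. There Saa3 was at 311 and 543 CPM and Chl1 at 46.5 and 39.8 CPM. Among barcodes under 15000 UMIs, Saa3 and Nos2 turned to -1.15 and -1.28.

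The lowest ratios were spread over more barcodes. Tnfsf10, the death ligand TRAIL with which NK and T cells kill sensitive targets, had 1 UMI in Kif13b-/- and 24 UMIs in 14 wild-type barcodes, a log2 ratio of -4.01 (-9.92 to -1.94). Glcci1, a glucocorticoid-induced gene, had 10 UMIs in 9 Kif13b-/- barcodes and 64 UMIs in 31 wild-type barcodes (-2.59, -3.78 to -1.68), and Entpd1, given above, follows it. Atg4a, an autophagy protease (7 UMIs in 6 barcodes against 65 UMIs in 16, -3.10), Nars2, a mitochondrial tRNA synthetase (1 UMI against 21 UMIs in 12, -3.82), and the semaphorin Sema6d (4 UMIs in 2 against 39 UMIs in 13, -3.11) were also detected in more than 10 wild-type barcodes. In contrast, Arpp21, Ccdc18 and Ly6d had no UMI in Kif13b-/- and lay in 3, 2 and 4 wild-type barcodes. With 3 UMIs over the Kif13b-/- barcodes as the floor, wild-type Arpp21 was at 12.4-fold the floor, and Ccdc18 and Ly6d each at 7.18-fold. The intervals of their log2 ratios ended at -3.26, -2.42 and -2.42. Gpr39 (-2.73), Dnai4 (-3.21) and the histone gene H2ac8 (-2.72) each had most of the wild-type UMIs in 1 barcode. Gpr39 turned to 1.89 among barcodes under 15000 UMIs.

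Set beside T cells without cytotoxic genes, cytotoxic barcodes of both libraries were led by a shared set of genes. This is a description, since the same counts chose the barcodes. Beside the selecting genes Gzma, Klre1 and Nkg7, the leaders were the NK receptors Klrc1 (228 CPM in cytotoxic barcodes and 20.7 CPM in the other T cells in Kif13b-/-, 252 and 36.1 CPM in wild-type), Klrd1 (120 and 19.0 CPM, 288 and 32.5 CPM) and Klrk1 (218 and 58.7 CPM, 286 and 42.1 CPM). Then came Ccl5, the cathepsin Ctsw, known from cytotoxic cells (106 and 29.4 CPM in Kif13b-/-, 137 and 30.1 CPM in wild-type), the hyaluronidase Cemip2, Litaf, Gzmk (101 and 29.4 CPM, 159 and 21.7 CPM), Abr, Fcer1g and the flippase Atp8b4. Il7r had the reverse order in both libraries, with 172 CPM in cytotoxic barcodes and 653 CPM in the other T cells in Kif13b-/-, and 50.5 and 423 CPM in wild-type. Rora was likewise at 432 and 1407 CPM in Kif13b-/- and at 332 and 775 CPM in wild-type.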

How the data were processed

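The 2 10x 3' libraries of mouse aorta, 1 Kif13b-/- and 1 wild-type, were used as deposited matrices of UMI counts per gene and barcode. The deposited counts were made by the authors with Cell Ranger 8.0.1, per the file headers, on the mm10 build, per the submitters' processing notes. They are raw counts, and filters and normalization beyond the Cell Ranger matrix are not given in the sources used here. Of 33696 features, 31961 were found in GENCODE M21, which gave the coordinates.

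Barcodes were kept and selected as the report states, from 7766 Kif13b-/- and 21126 wild-type deposited barcodes. Counts were summed per library and set and divided by the set's total (CPM). Log2 ratios are Kif13b-/- over wild-type with a prior of 0.5 UMI scaled by the totals. Intervals are exact conditional binomial (ratios), exact Poisson (levels) and Clopper-Pearson (shares) at 95%. They cover counting error only, since cells are not replicates and each genotype has 1 library. Genes with at least 20 UMIs over both libraries were measured. Equal-weight ratios compare the mean CPM over barcodes, with 5 CPM added. Thinning drew 800 UMIs per barcode with seed 1. The script was tested on simulated data.

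The selection rule, the gene lists and the tests were chosen with earlier results of these data known. The report names the selecting genes, Cd3 genes, Cd8a, Kif13b and Mertk. It also names the 12 highest and 12 lowest ratios among genes whose interval excludes equal levels and whose level reaches 50 CPM in the library that has more. Gene classes such as ribosomal genes were left out of these, and so were 424 genes that all other barcodes held at a higher level. From each of 19 lists it names up to 4 genes past a ratio of 1.5 and up to 3 within it by UMI number, with fewer from some lists and none from 3. It further names 15 leaders over other T cells and leaders of the barcodes with and without Cd3. A few genes that these rules would name are not reported here. Genes named only to complete a count were chosen after their values were seen. Scrublet's automatic threshold marked 1 Kif13b-/- and 0 wild-type barcodes, so no doublets were removed. Removing the 400 Kif13b-/- and 2667 wild-type barcodes of highest score, as an alternative, took out 0 Kif13b-/- and 7 wild-type cytotoxic barcodes. Other alternatives changed the barcode and gene minimums, the selection limits, the scaling, the prior and the weighting. Tools were Python 3.11.15, numpy 2.4.6, scipy 1.17.1, pandas 2.3.3, scanpy 1.11.5 and matplotlib 3.10.9.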

Additional observations from a re-analysis of the deposited data

Results flagged for a closer look

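For 3 genes the libraries differed by a ratio of 1.5 or more in cytotoxic barcodes and by as much the other way in T cells without cytotoxic genes, both from summed UMIs and with each barcode weighing the same. The difference between both log2 ratios, cytotoxic barcodes minus other T cells, was -2.95 for Tox, -2.08 for Cxcr6 and 2.65 for Xcl1. Tox was at 172 CPM in Kif13b-/- and 702 CPM in wild-type cytotoxic barcodes, and at 991 and 521 CPM in the other T cells. Cxcr6 was at 83.4 and 223 CPM in cytotoxic barcodes and at 352 and 221 CPM in the other T cells. Xcl1 was at 290 and 103 CPM in cytotoxic barcodes and at 24.2 and 55.4 CPM in the other T cells, where its Kif13b-/- UMIs came from 2 barcodes. Of the 574 Tox UMIs of the other T cells in Kif13b-/-, 117 were in 1 barcode. Among cytotoxic barcodes under 15000 UMIs Cxcr6 was within a ratio of 1.5, and among those without Cd3 Xcl1 was at -1.61. The same limit of 3 UMIs of the selecting genes divides both sets, at unlike depth in the libraries. With 1 library per genotype the difference was not tested.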

How the results depend on the processing

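No paired analysis was possible because each genotype has 1 library and no result comes from a test. Counting error, the 31 Kif13b-/- barcodes and the 8 deep ones among them limit the values. The settings under 15000 UMIs, with at least 3 NK or CD8 T markers and, for Il7r and Ccr7, under 100 H2-Eb1 UMIs were chosen after seeing the data. The causes of the shifts below were not tested.

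The cytotoxic share, with its main values of 0.439% in Kif13b-/- and 0.542% in wild-type, moved as follows. In Kif13b-/- it was 0.716% at no more than 10% mitochondrial UMIs, 0.635% at 5000 UMIs or more (ratio 1.28), 0.651% with 2 UMIs of the selecting genes, 0.269% with 5, and 0.212% at 1000 CPM (ratio 0.404). In wild-type it was 0.773% at 2000 UMIs or more, 0.854% with 2 UMIs of the selecting genes, 0.301% with 5, 0.416% under 1% of other lineages and 0.411% with 3 NK or CD8 T markers. The share without Cd3 was 58.1% in Kif13b-/- and 42.4% in wild-type after thinning. In wild-type it was also 37.2% with 2 UMIs, 33.3% at 1000 CPM, 9.21% under 1% of other lineages and 10.7% with 3 NK or CD8 T markers.

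Genes higher and lower, 1019 and 1453 in the report, were 4516 and 4665 with no minimum, 404 and 766 at 50 UMIs, 136 and 235 after thinning, 526 and 609 without Cd3, 627 and 904 with 5 UMIs of the selecting genes and 555 and 888 at 1000 CPM. There were 550 higher genes under 15000 UMIs, 644 under 1% of other lineages, and 954 lower genes under median-ratio scaling.

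These log2 values changed sign. With equal weights they were effector cytokines 0.0622, Ncr1 0.32, Hcst 0.0727, Ifngr1 0.0799, Ets1 0.0843 and Cd69 0.13. After thinning they were Mertk -1.21, Gpr137b -1.21, H2-D1 0.11, Hcst 0.14, Sh2d2a 0.25, Hmgb2 0.0399, Pdcd1 0.0850, Ifngr1 0.34, Pgk1 -0.59, Ets1 0.39, Gzmk 0.0850 and Cd69 0.39. Under 15000 UMIs they were effector cytokines 0.29, Ncr1 0.53, Saa3 -1.15, Nos2 -1.28, Gpr39 1.89, Hcst 0.27, Ifngr1 0.11, Ets1 0.11 and Cd69 0.30. With Cd3 they were cell cycle 0.0224 and Mertk -0.43, and without Cd3 Cd8a 1.33, Gpr39 0.48, Tyrobp -1.07, Havcr2 4.25, Xcl1 -1.61 and Ifi27l2a 3.54. With no C1q limit they were effector cytokines 0.24 and Ccl4 0.86, with 2 UMIs of the selecting genes Mertk -0.17 and Havcr2 0.73, and with 5 Gzmk 0.23. Under 1% of other lineages they were Mertk -1.45, Saa3 -0.88 and Gpr39 1.75. At 1000 CPM, with 15 Kif13b-/- and 96 wild-type barcodes, they were NK inhibitory receptors 0.23, T cell receptor 0.15, effector cytokines 0.0268, cell cycle 0.86, Cd3e 0.24, Mertk -2.33, Bmper -1.23, Saa3 -0.64, Nos2 -1.88, Clmp -1.23, Spp1 -0.92, Hcst 0.50, Cd247 0.17, Trbc2 0.15, Hmgb2 0.40, Stmn1 0.10, Ifngr1 0.35, Hk2 -0.17, Ets1 0.54 and Cd69 0.83.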
